A study of Mus musculus with 4 samples.

Results

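The acute-phase and lipocalin genes examined here are Saa1, Saa2, Saa3, Lcn2, Hp, Cp, Orm1, Steap4, Ptx3 and Slpi, taken by gene symbol from the deposited expression table. Of these 10 names, 9 had a row among the 22369 genes of the table, and Orm1 was not analysed here. The members were chosen by name with their normalized values in the V118M and WT libraries already known, so the differences below describe the members and no test is made on them. RNA sequencing was done on 4 libraries of OG2MEF cells, fibroblasts of mouse embryos in which an Oct4 promoter drives a green fluorescent protein, at reprogramming day 9. Of these, 2 were labelled SOX17-V118M (here V118M), a form of the endodermal factor SOX17 with a missense change, and 2 were labelled SOX17 WT (here WT). Cells had been infected in 2 rounds with pMX retroviruses for Sox2 and Klf4 plus either OCT4, a SOX17 form or GFP, and then kept in a medium for mouse stem cells that contained LIF and vitamin C. The labels do not say which virus mix each library received or whether replicates were separate cultures, so the spread between replicates may be technical. Retroviral infection leaves a mixed culture, and in such bulk RNA a change in the number of expressing cells and a change in RNA per cell cannot be told apart.

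The acute-phase response is the rapid change in secreted proteins that follows infection or injury. It is best known in the liver, where IL-6 family cytokines act through STAT3, and IL-1 and TNF act through NF-kB and the C/EBP factors. Fibroblasts, macrophages, adipocytes and epithelia make some of the same proteins outside the liver, Saa3, Lcn2 and Ptx3 among them. The label of the group is not exact for Steap4, which is a membrane metalloreductase and not a secreted protein.

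The promoters of the 3 members with differences of at least 2-fold and a RefSeq entry are printed first, since they show what these genes share in sequence. They are followed by those of Saa1 and Saa2, the serum amyloid genes whose V118M and WT values overlapped. RefSeq sequences of build GRCm38.p6 run 5′ to 3′ from 250 bases before the annotated start to 50 bases after it, and 8 of the 10 names had an entry (not Hp or Orm1). Capitals mark matches to the C/EBP-type motif TTGCNNAA, searched on both strands.
Saa3, chr7:46715627-46715926, minus strand: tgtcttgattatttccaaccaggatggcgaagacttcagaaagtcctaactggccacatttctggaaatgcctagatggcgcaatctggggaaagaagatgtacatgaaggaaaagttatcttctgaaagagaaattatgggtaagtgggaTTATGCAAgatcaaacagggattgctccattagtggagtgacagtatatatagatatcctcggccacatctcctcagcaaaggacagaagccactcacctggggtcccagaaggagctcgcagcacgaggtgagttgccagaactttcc
Lcn2, chr2:32387690-32387989, minus strand: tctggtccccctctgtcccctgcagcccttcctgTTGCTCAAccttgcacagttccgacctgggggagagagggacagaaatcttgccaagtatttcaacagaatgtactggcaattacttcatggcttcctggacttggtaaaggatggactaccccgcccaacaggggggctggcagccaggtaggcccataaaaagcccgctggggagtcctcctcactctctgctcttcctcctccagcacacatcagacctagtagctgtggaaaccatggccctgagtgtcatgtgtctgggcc
Slpi, chr2:164356458-164356757, minus strand: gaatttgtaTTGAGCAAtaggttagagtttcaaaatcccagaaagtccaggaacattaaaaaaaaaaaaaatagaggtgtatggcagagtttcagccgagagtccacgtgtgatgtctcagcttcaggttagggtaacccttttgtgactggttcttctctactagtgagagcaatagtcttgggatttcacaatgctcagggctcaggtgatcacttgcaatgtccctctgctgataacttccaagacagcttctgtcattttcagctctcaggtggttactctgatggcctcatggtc
Saa1, chr7:46742931-46743230, minus strand: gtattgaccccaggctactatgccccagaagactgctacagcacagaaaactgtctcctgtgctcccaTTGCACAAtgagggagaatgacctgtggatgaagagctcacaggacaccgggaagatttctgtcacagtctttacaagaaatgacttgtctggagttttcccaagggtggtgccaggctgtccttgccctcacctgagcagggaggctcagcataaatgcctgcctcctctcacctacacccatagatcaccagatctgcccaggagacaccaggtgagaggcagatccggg
Saa2, chr7:46751583-46751882, plus strand: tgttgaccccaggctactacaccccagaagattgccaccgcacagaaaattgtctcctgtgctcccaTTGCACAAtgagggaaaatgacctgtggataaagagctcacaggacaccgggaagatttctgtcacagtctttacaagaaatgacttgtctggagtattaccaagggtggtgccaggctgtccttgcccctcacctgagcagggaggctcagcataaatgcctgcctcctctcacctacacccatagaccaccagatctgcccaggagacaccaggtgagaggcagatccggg

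The C/EBP-type motif was present in the promoter of 8 of the 8 member genes with an entry, in Cp in only 1 of its 2 annotated promoters. The same letters were present in 10.8% of all 32851 mouse promoters of this length and in 10.7% of the 13613 tested genes that had one. Among the other acute-phase genes listed below, 10 of the 23 genes with an entry (43.5%) held it. The match was TTATGCAA, 99 bases upstream of the Saa3 start. In Lcn2 it was TTGCTCAA, 216 bases upstream. In Slpi, TTGAGCAA lay 241 bases upstream. Saa1 and Saa2 carried an identical TTGCACAA, 182 and 183 bases upstream, and their promoters were 96.0% identical over 299 aligned bases, so these 2 matches are not separate observations. The other motifs searched were found in fewer members. The NF-kB consensus was found in Ptx3 and Steap4 (8.46% of all promoters). The STAT motif TTCNNNGAA was found in Steap4 as TTCCCGGAA, 116 bases upstream (8.30% of all promoters). The TATA box letters TATAAA were found in Cp and Steap4 (13.6% of all promoters). The STAT pattern of Steap4 is met on both strands at this place, and the NF-kB matches of Ptx3 overlap each other. Among the 13613 tested genes with an entry, the NF-kB, STAT and TATA letters were in 11.7%, 8.53% and 10.9%. In the 23 other acute-phase genes with an entry they were in 4.35%, 30.4% and 34.8%. Saa1 and Saa3 both carry the C/EBP-type letters, while their differences between groups, given below, are unlike. A match describes letters only, and the absence of a match says only that these letters are not in this window.

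Values in the table are whole numbers that share nearly the same distribution in all libraries. They are called normalized values here, have no stated unit, and cannot be compared between genes as levels per length. Log2 fold changes are V118M minus WT on the log2(value + 1) scale, which understates the change of low genes, and are given with the standard error (SE) of a limma fit across all genes. V118M replicate 2 was unlike the rest, with Pearson correlations of 0.954 to 0.964 to them, against 0.986 to 0.990 among the other 3 over 12661 genes that averaged 5 or more on the log2 scale. In the comparison of all 19547 genes that passed the filter on low values, 0 genes (0%) had an adjusted p under 0.05 (limma, lowest adjusted p = 0.205), and 784 had an unadjusted p under 0.05.

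All 9 members with a row passed the filter. Both V118M libraries lay above both WT libraries in 7 of the 9 members, and in 13.2% of all genes tested. The groups overlapped in the remaining members, Saa1 and Saa2. Members above both WT libraries and at least 2-fold higher on the fitted scale numbered 4, namely Saa3, Lcn2, Hp and Slpi, where 2.69% of all genes tested met the same rule. The median log2 fold change of the 9 members was 0.54, and that of all genes tested was 0. Leaving out V118M replicate 1 gave the members a median of 1.51, and leaving out V118M replicate 2 gave 0.35. Because the choice of members used this contrast, these counts are given beside the background and nothing is read from them. With V118M replicate 1 alone, 7 members lay above both WT libraries (28.2% of all genes) and 2 of them, Saa3 and Lcn2, by at least 2-fold (3.64% of all genes). With V118M replicate 2 alone, 8 did so (43% of all genes) and 5 of them by at least 2-fold (6.56% of all genes).

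**Figure D1:**
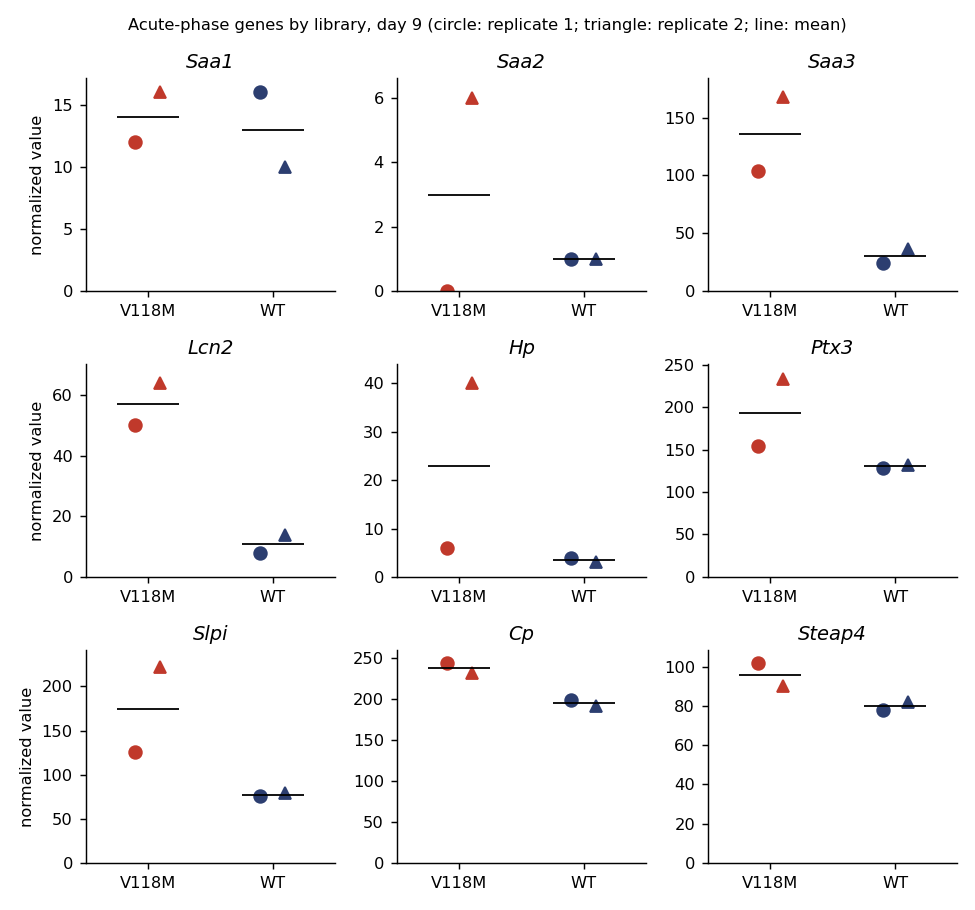
Normalized values of the 9 members in each library, with V118M in red on the left and WT in blue on the right of each panel. Circles are replicate 1, triangles are replicate 2 and black lines are means of n = 2. Saa3 and Lcn2 are high in both V118M libraries, whereas Hp is high in V118M replicate 2 alone.

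The serum amyloid A genes behaved differently from each other. They are small apolipoproteins that replace apolipoprotein A-I on high-density lipoprotein during inflammation. In the mouse, Saa1 and Saa2 are chiefly liver genes and Saa3 is made mainly outside the liver. The genes lie together on chromosome 7, where Saa3, Saa4, Saa1 and Saa2 span 42.3 kb in GRCm38, and Saa4 was not analysed here. Saa3 (ENSMUSG00000040026, chromosome 7, 46711998 to 46715700, minus strand) stood at 104 and 168 in V118M and at 24 and 36 in WT. Both V118M libraries were far above both WT libraries, and the WT libraries differed by 0.57 on the log2 scale. Its log2 fold change was 2.13 (SE 0.36), a 4.38-fold difference. Relative to the WT mean, V118M replicates 1 and 2 were higher by 1.79 and 2.47 on the log2 scale, so neither library carried the difference alone.

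Saa1 (chromosome 7, 46740497 to 46742980, minus strand) stood at 12 and 16 in V118M and at 16 and 10 in WT. The groups overlapped completely, and its log2 fold change of 0.12 was smaller than its SE of 0.46. The table lists Saa1 by a transcript that GENCODE types as a retained intron, and no source used here says whether only that transcript was counted. Saa2 (chromosome 7, 46751790 to 46754313, plus strand) was at 0 and 6 in V118M and at 1 and 1 in WT, at the bottom of the scale in every library. Its log2 fold change was 0.40 (SE 1.04), with V118M replicate 1 below both WT libraries and replicate 2 above them. The longest protein-coding transcripts of Saa1 and Saa2 were 94.4% identical over 606 aligned bases, so reads may have been split between these 2 genes and their separate values are uncertain.

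Lcn2 encodes lipocalin 2, a secreted carrier that binds bacterial siderophores and so withholds iron from bacteria. Lcn2 (ENSMUSG00000026822, chromosome 2, 32384633 to 32388252, minus strand) stood at 50 and 64 in V118M and at 8 and 14 in WT. The lowest V118M value was well above the highest WT value. Its log2 fold change of 2.31 (SE 0.41), or 4.96-fold, was the largest of the 9 members, and V118M replicates 1 and 2 exceeded the WT mean by 2.13 and 2.48. The transcript listed for Lcn2 is typed as a processed transcript in GENCODE.

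Ptx3 and Slpi were intermediate. Ptx3 encodes the long pentraxin 3, a soluble pattern recognition protein that also takes part in building hyaluronan-rich matrix. Ptx3 (chromosome 3, 66219910 to 66225805, plus strand) stood at 154 and 233 in V118M and at 128 and 132 in WT. V118M replicate 2 was well above the others and replicate 1 only slightly, which gave a log2 fold change of 0.54 (SE 0.26). Slpi encodes secretory leukocyte protease inhibitor, a WAP-domain protein of epithelia that inhibits neutrophil elastase. Slpi (chromosome 2, 164354070 to 164389095, minus strand) stood at 126 and 222 in V118M and at 76 and 79 in WT. The WT values were nearly equal, while the V118M values spread widely above them (174 ± 67.9 against 77.5 ± 2.12, SD, n = 2 each). Its log2 fold change was 1.10 (SE 0.32), with 0.69 in V118M replicate 1 and 1.51 in replicate 2.

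**Figure D2:**
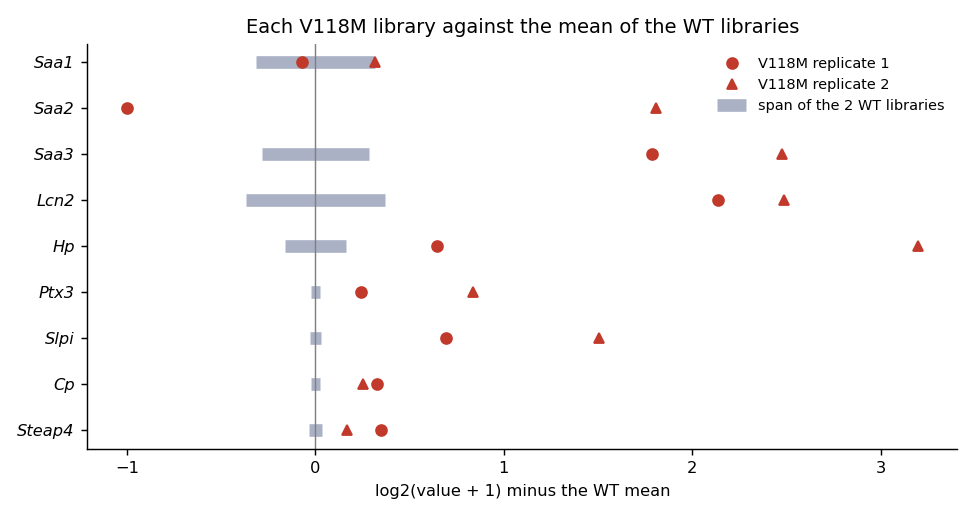
Difference of each V118M library from the mean of the WT libraries, in log2(value + 1), for each member. Red circles and triangles are V118M replicates 1 and 2, and blue bars span the 2 WT libraries. Both red points of Lcn2 lie above 2, those of Cp and Steap4 lie close to the bars, and those of Saa2 lie on opposite sides of 0.

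The metal-handling and haemoglobin-binding members showed no difference of the size seen in Saa3 that was shared by both V118M libraries. Hp encodes haptoglobin, which captures free haemoglobin. Hp (chromosome 8, 109575128 to 109579172, minus strand) stood at 6 and 40 in V118M and at 4 and 3 in WT. Although the groups did not overlap, V118M replicate 1 was within a few units of the WT libraries and replicate 2 supplied nearly all of the difference. The log2 fold change of 1.92 (SE 0.92) was 0.65 with V118M replicate 1 alone and 3.20 with replicate 2 alone.

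Cp encodes ceruloplasmin, a copper-carrying ferroxidase that lets iron load onto transferrin. Cp (chromosome 3, 19957054 to 20009145, plus strand) was at 244 and 232 in V118M and at 198 and 191 in WT. The groups were separate and each was tight, but the log2 fold change of 0.29 (SE 0.17) was small. Steap4 encodes a metalloreductase that reduces iron and copper and is induced by inflammatory cytokines. Steap4 (chromosome 5, 7960457 to 7982213, plus strand) was at 102 and 90 in V118M and at 78 and 82 in WT. V118M values were above WT values by a narrow margin, with a log2 fold change of 0.26 (SE 0.22). Cp and Steap4 were the members in which V118M replicate 2 lay below replicate 1, and in the other 7 it lay above.

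**Figure D3:**
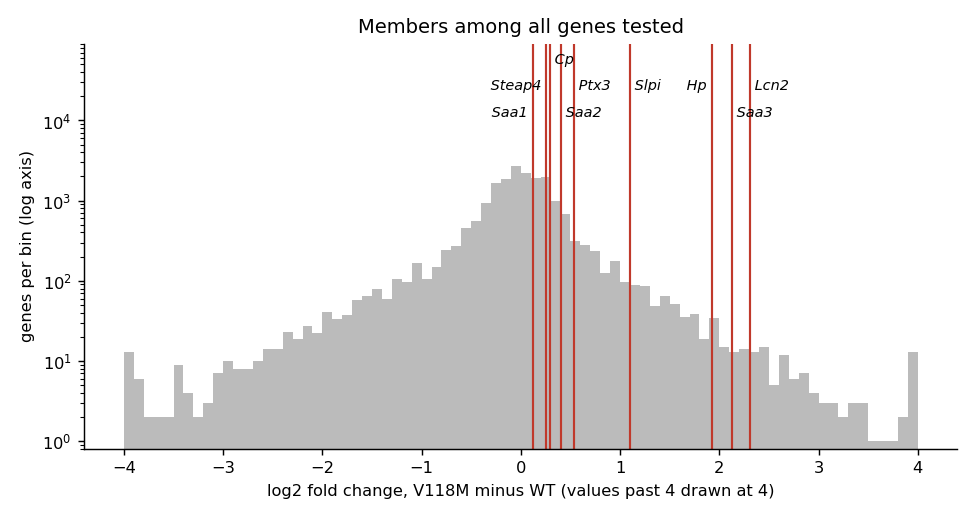
Histogram of the log2 fold changes, V118M minus WT, of all 19547 genes tested, with the number of genes per bin on a log axis. Red lines mark the 9 members, of which Lcn2, Saa3 and Hp lie in the upper tail and Saa1, Steap4 and Cp in the bulk.

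Transcript length moved with the deviations of the libraries, most strongly in V118M replicate 2. Over the same 12661 genes, longer transcripts had lower deviations in V118M replicate 2 (Spearman's rho -0.458 across genes, which are not independent replicates), where the deviation is the log2 value minus the mean of the remaining 3 libraries. The rho was 0.381 in V118M replicate 1, 0.390 in WT replicate 1 and 0.078 in WT replicate 2, each against a mean that holds V118M replicate 2. The median deviation of V118M replicate 2 was 0.25 on the log2 scale for transcripts under 1000 bases, 0.29 from 1000 to 2000 bases and -0.27 from 4000 bases upward. The members with the largest differences had short listed transcripts, of 555 bases in Saa3, 876 in Slpi, 1345 in Hp and 1374 in Lcn2, while those of Cp and Steap4 had 4029 and 3155 bases. Saa2, whose groups overlapped and whose log2 fold change was 0.40, also had a short listed transcript, of 652 bases. In V118M replicate 2, Saa3 deviated by 1.88 and Lcn2 by 1.77, above the median of genes of like length. The mean subtracted holds both WT libraries, so a gene higher in V118M deviates upward at any length. This comparison therefore cannot tell length from group. Lcn2 averaged 4.69 on the log2 scale and is not among the genes that gave the medians. With a length trend removed from every library, the log2 fold change was 2.02 for Saa3, 2.19 for Lcn2, 1.80 for Hp, 0.97 for Slpi and 0.47 for Ptx3.

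**Figure D4:**
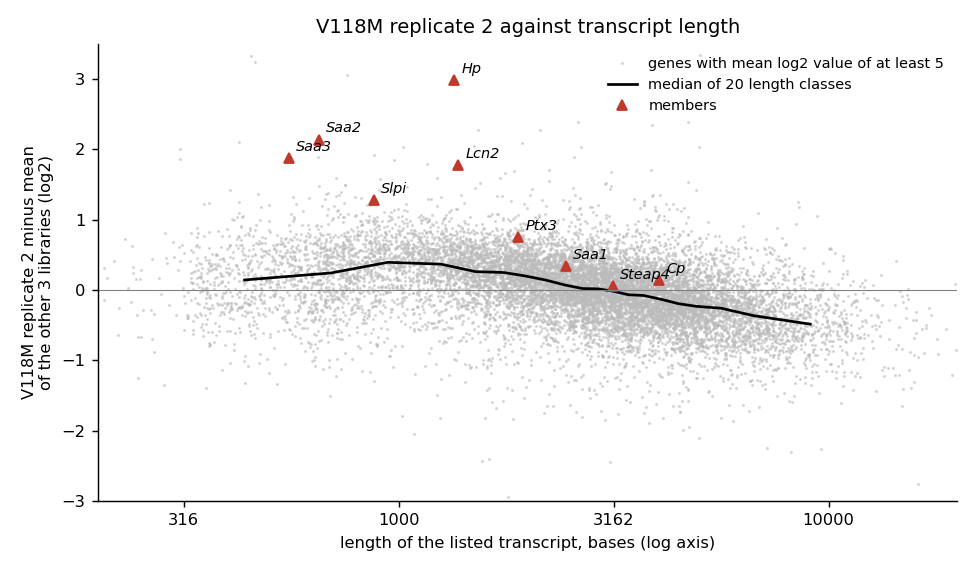
Deviation of V118M replicate 2 from the mean of the other 3 libraries, in log2, against the length of the listed transcript in bases on a log axis. Grey points are genes that average 5 or more on the log2 scale, the black line joins medians of 20 length classes, and red triangles are the 9 members. Lcn2, Hp, Saa1 and Saa2 average under 5 and are not among the grey points. Cp, at 0.14, and Steap4, at 0.05, lie near 0, and Saa3, Lcn2, Slpi, Hp and Saa2 lie above 1.

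Other acute-phase genes, listed with earlier results of these data known, differed in either direction. Of 30 names, 25 had a row and 17 were tested. None passed over all genes (limma, lowest adjusted p = 0.205). An unadjusted p under 0.05 was found in 7 of the 17, against 784 of all 19547 genes tested. That background also applies to the counts of unadjusted p in the lists below. The lists were chosen with earlier results known, so nothing is read from these counts. The list median was 0.21, and both V118M libraries were above both WT libraries in 7 of the 17 tested genes, against 13.2% of all genes tested, and below them in 2, against 14.8% of all genes tested. Lbp, the lipopolysaccharide-binding protein, was at 5335 and 4619 in V118M and at 3174 and 3316 in WT (log2 fold change 0.61, adjusted p = 0.951). Serpina3n, a serine protease inhibitor of the antichymotrypsin family, was at 991 and 1066 in V118M and at 714 and 709 in WT. Both genes were therefore separate between groups, by less than 2-fold.

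The highest log2 fold changes of the tested genes in this list were those of C4b and Cfb, and the lowest was that of Hpx. C4b, a component of the classical pathway, was at 1161 and 992 in V118M and at 184 and 204 in WT, with a log2 fold change of 2.46 (SE 0.17, limma adjusted p = 0.205). Its reads may be shared with the closely related C4a. Cfb, the protease of the alternative pathway, was at 172 and 214 in V118M and at 32 and 36 in WT, with a log2 fold change of 2.46 (SE 0.24, limma adjusted p = 0.269). In C3, the central component, the groups overlapped, with 1280 and 690 in V118M and 1049 and 848 in WT. The liver acute-phase genes Orm2, Fgg, Serpina1b and Itih3 were listed at 0 in all 4 libraries. Hpx, haemopexin, went the other way from Hp, with 2 and 0 in V118M and 10 and 20 in WT (log2 fold change -3.13), and was named after its values were seen.

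**Figure D5:**
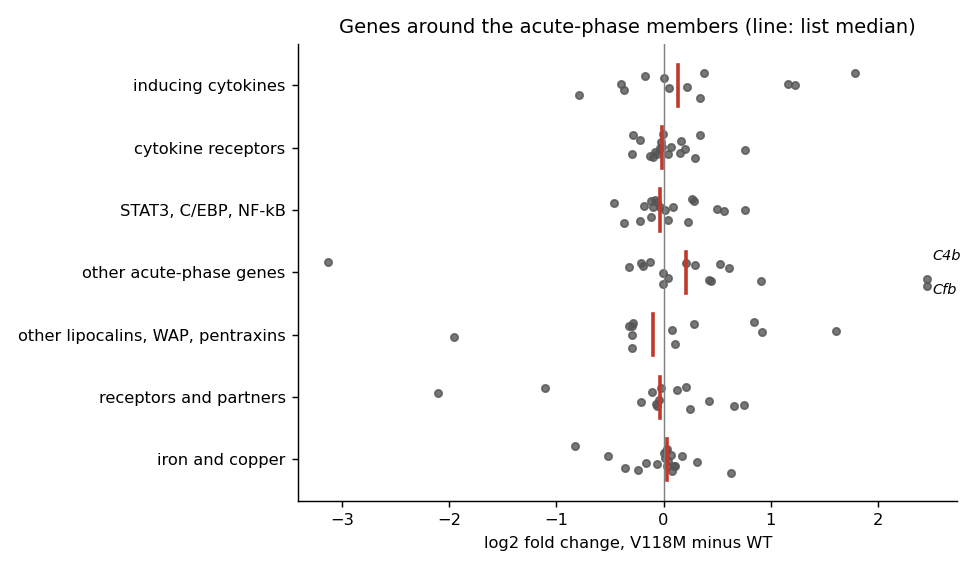
Log2 fold changes, V118M minus WT, of the tested genes in 7 lists of inducers, relatives and partners of the members. Grey points are genes, spread vertically for legibility, and red lines are list medians. C4b and Cfb lie near 2.46, and the list medians lie between -0.10 and 0.21.

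Upstream of the members, few inducing cytokines were measured at more than low values. Of 15 listed ligands, 14 had a row and 12 were tested, none passed (limma, lowest adjusted p = 0.951), 2 had an unadjusted p under 0.05 and the median log2 fold change was 0.13. Il1a, an alarmin that activates NF-kB, was at 140 and 122 in V118M and at 106 and 95 in WT. Il6, the main inducer of liver acute-phase genes, was named after its values were seen. It had 26 and 36 in V118M and 13 and 12 in WT, a log2 fold change of 1.23 (SE 0.38, limma adjusted p = 0.951). The second ligand with an unadjusted p under 0.05 was Tnf, also named after its values were seen. It was near the floor, at 2 and 3 in V118M and at 0 and 0 in WT (log2 fold change 1.79, SE 0.60). Il1b, likewise named after its values were seen, stood at 0 and 3 in V118M and at 3 and 2 in WT, and Osm was listed at 0 in all 4 libraries. Clcf1, another cytokine of the IL-6 family, was lower in V118M, at 229 and 163 against 266 and 244 in WT.

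Receptors and transcription factors of these routes were measured at higher values and differed little. The receptor list also held genes that are not receptors, such as the antagonist Il1rn and the adaptor Myd88. Il1rn is also counted among the other acute-phase genes above. Of 19 tested genes of the receptor list none passed (limma, lowest adjusted p = 0.951), 1 had an unadjusted p under 0.05, and the median log2 fold change was -0.01. That gene was Il1r1, the signalling receptor for IL-1, at 262 and 272 in V118M and at 170 and 145 in WT (log2 fold change 0.76, SE 0.18). Il6st, the shared gp130 subunit, overlapped between groups at 3873 and 2308 in V118M and 3550 and 3426 in WT. Osmr, the oncostatin M receptor, did so too, at 1175 and 784 in V118M and 862 and 860 in WT.

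In the list of STAT3, C/EBP and NF-kB factors and feedback genes, 19 of 23 were tested, none passed (limma, lowest adjusted p = 0.951), 1 had an unadjusted p under 0.05 and the median log2 fold change was -0.03. The gene with the low unadjusted p was Bcl3, an atypical IkB protein that acts with NF-kB subunits in the nucleus, at 196 and 148 in V118M and at 97 and 103 in WT (log2 fold change 0.76). Cebpb, a C/EBP factor of the acute-phase response, was at 193 and 148 in V118M and at 145 and 89 in WT, which nearly touch. Socs3, a STAT3-induced feedback inhibitor, stood at 888 and 922 in V118M and at 742 and 764 in WT. Stat3 itself was at 3664 and 3402 in V118M and at 3665 and 3922 in WT. Tnfaip3, an NF-kB feedback gene, had lower values in V118M, 253 and 181, than in WT, 278 and 312.

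Relatives and partners of the members were mixed. Of 24 other lipocalins, WAP-domain inhibitors and pentraxins, 12 were tested, none passed (limma, lowest adjusted p = 0.951), 3 had an unadjusted p under 0.05 and the median was -0.10. Of these 3 genes, Apod and Rbp4 were higher in V118M and Wfdc3 was lower. Wfdc3, named after its values were seen, was near the floor, at 0 and 0 in V118M and at 2 and 4 in WT (log2 fold change -1.95). The lipocalin Apod, a lipid carrier, was at 251 and 410 in V118M and at 158 and 202 in WT. Rbp4, the lipocalin that carries retinol, was named after its values were seen, at 44 and 94 in V118M and 22 and 19 in WT. Wfdc2, a WAP-domain relative of Slpi, overlapped between groups with 111 and 224 in V118M and 114 and 146 in WT. Apod, Rbp4, Wfdc2 and Slpi all had their highest value in V118M replicate 2, which alone lay above both WT libraries in 43% of all genes. The pentraxin gene Nptx1 of this list had its lowest value there, with 812 and 529 in V118M and 929 and 695 in WT.

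Of 21 receptors, ligands and target enzymes of the members, 14 were tested, none passed (limma, lowest adjusted p = 0.951), 0 had an unadjusted p under 0.05 and the median was -0.03. Cd163, the macrophage receptor for haptoglobin and haemoglobin complexes, was listed at 0 in all 4 libraries. Hmox1, which degrades haem, was at 2750 and 3347 in V118M and at 3044 and 3347 in WT. Of 20 iron and copper genes 19 were tested, none passed (limma, lowest adjusted p = 0.951), 0 had an unadjusted p under 0.05 and the median was 0.03. The ferritin heavy chain gene Fth1 was at 5665 and 8998 in V118M and at 5966 and 6695 in WT, and the iron exporter Slc40a1 was at 193 and 181 in V118M and at 204 and 214 in WT.

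The genes most like Saa3 over the 4 libraries, by Euclidean distance between centred log2 profiles among 13496 other genes with a mean value of at least 20, were Ifit1 (distance 0.25), Lcn2 (0.32), Phyhipl (0.34) and H2-T24 (0.50). Those most like Lcn2 were Phyhipl (0.20), Saa3 (0.32), Ifit1 (0.40) and Cfb (0.43). Ifit1, an interferon-induced antiviral gene, was at 150 and 252 in V118M and at 34 and 43 in WT. With 4 libraries such likeness reflects little more than the size of the V118M difference.

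Markers of cell types that could carry these RNAs were summed per library, as normalized values over the listed genes with a row. Single markers given here, and for the epithelial and fibroblast lists below, were named after their values were seen. Hepatocyte markers, with 10 of 12 genes in the table, summed to 29 and 52 in V118M and 34 and 29 in WT. Albumin (Alb) was at 0 and 0 in V118M and at 0 and 10 in WT, and Tat was listed at 0 in all 4 libraries. Cps1 was at 12 and 36 in V118M and at 16 and 1 in WT. Neutrophil markers, with 8 of 12 genes, summed to 54 and 98 in V118M and 61 and 91 in WT, and Mpo was at 2 in every library. Cxcr2 was at 6 and 5 in V118M and at 1 and 1 in WT, and Ly6g was at 22 and 44 in V118M and at 25 and 58 in WT. Macrophage markers, with 12 of 12 genes, summed to 638 and 652 in V118M and 928 and 839 in WT. Ptprc was at 30 and 0 in V118M and at 165 and 58 in WT. Of the 11 tested macrophage markers, 2 were higher and 8 were lower in V118M by log2 fold change. Adipocyte markers, with 7 of 10 genes, summed to 612 and 595 in V118M and 584 and 454 in WT, and Adipoq was listed at 0 in all 4 libraries. Lpl was at 180 and 182 in V118M and at 134 and 137 in WT. Both V118M libraries were above both WT libraries in 0 of 4 tested hepatocyte and 1 of 6 tested neutrophil markers. The same held for 0 of 11 macrophage and 1 of 4 adipocyte markers, against 13.2% of all genes tested. Both were below both WT libraries in 1 of the 11 macrophage markers and in 0 of the others, against 14.8%.

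Epithelial and keratinocyte markers, with 12 of 12 genes, summed to 36357 and 42328 in V118M and 32581 and 33964 in WT, and both V118M libraries were above both WT libraries in 5 of the 12 (13.2% of all genes tested) and below them in 2 (14.8% of all genes tested). Krt5, a basal keratin, was at 664 and 731 in V118M and at 246 and 199 in WT (log2 fold change 1.65, limma adjusted p = 0.332), whereas Epcam was at 742 and 1098 in V118M and at 884 and 990 in WT. The part of these cells in the Slpi and Lcn2 differences was not tested. Fibroblast markers, of the labelled starting cells, had 12 of 12 genes in the table and summed to 174752 and 143920 in V118M and 172279 and 174336 in WT. Col3a1 had a large part in these sums, at 61186 and 29496 in V118M and at 61186 and 61186 in WT. The normalized values follow rank, and Col1a2 stood at 29492 in every library. The lower Col3a1 value in V118M replicate 2 may therefore be a step of few ranks. Its size, and that of the lower sum, does not measure a fall in RNA. Both V118M libraries were above both WT libraries in 3 of the 12 (13.2% of all genes tested) and below them in 0 (14.8% of all genes tested). The median log2 fold change of the list was 0.007.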

How the data were processed

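Per the labels' protocols, TRIzol was used for total RNA and a TruSeq Nano kit for the libraries. FastQC, Bowtie2, RSEM, DESeq2 and the build mm10 appear in the submitters' processing notes, with no version or role. The deposited table holds a score per gene and library. The 4 sorted columns are equal at 76.7% of ranks and sum to between 12855482 and 12859613, so these scores are quantile-normalized values, not raw counts, and the depth is unknown. No counting interval or floor is given, and library-wide shifts cannot be seen.

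The analysis used log2(value + 1), and 19547 genes that reached 1 in 2 or more libraries were kept. The fit used limma 3.58.1 (R 4.3.3), a group term alone and the trend and robust options. Its two-sided p-values were adjusted by the Benjamini-Hochberg method across all 19547 genes, and it was checked on simulated data. Coordinates, transcript types and lengths come from GENCODE M21 (GRCm38), in which 22304 listed transcripts were found. No source used here says whether reads were counted by strand.

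The members, gene lists and motifs were chosen with earlier results of these data known. Genes named are the members, listed genes with a mean value of at least 100 or at 0 in all libraries, and the 4 genes most like Saa3 or Lcn2. Single cell type markers were named after their values were seen, as is said with the marker sums. Any other gene is marked as named with its values known. The comparison with 1 V118M library at a time was added after seeing the data.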

Additional observations from a re-analysis of the deposited data

How the results depend on the processing

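Alternatives were pseudocounts of 0.1 and 5, no filter, a filter at 10, median centring, removal of a transcript length trend, array quality weights, the replicate number as a block, and each library left out. The count of genes with adjusted p under 0.05 stayed 0 in every alternative but the replicate block, where it was 3 (Oas2, Ifi27l2a and C4b) and 1 among the fixed lists (C4b, adjusted p = 0.0276), with none of the 9 members among them. Deviations of same-numbered libraries from their group means correlated at 0.303 across genes. The labels do not say that the numbers pair libraries, and there are only 2 pairs.

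The number of members higher in V118M was 9 of 9, ranged from 7 to 9 when 1 library was left out, and was 8 with a pseudocount of 0.1. Of all 19547 genes tested, 9624 were higher in V118M and 9414 were lower. The members were chosen with this contrast known, so nothing is read from their count. Log2 fold changes ranged from 1.79 to 2.47 for Saa3, 1.94 to 2.68 for Lcn2, 0.69 to 1.51 for Slpi, 0.24 to 0.84 for Ptx3, 0.65 to 3.20 for Hp, 0.25 to 0.35 for Cp and 0.17 to 0.35 for Steap4. The sign of Saa1 (-0.19 to 0.43) and of Saa2 (-1 to 1.81) depended on the library left out, and that of Saa2 also on the pseudocount (-0.49 at 0.1). The median log2 fold change of the members ranged from 0.35 to 1.51 over the left-out libraries and that of the other acute-phase genes from 0.09 to 0.54, while the medians of the other 6 lists changed sign (lipocalin and WAP-domain genes, -0.20 to 0.23). Saa2 and Hp did not pass the filter at 10. With 2 libraries per group and an unknown depth, the differences of Saa1, Saa2, Cp and Steap4 were under 2 standard errors. Those of Hp (1.92, SE 0.92) and Ptx3 (0.54, SE 0.26) were only slightly above 2 standard errors. These ratios describe the members and are no test.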
